A study of Rattus norvegicus with 9 samples.

Results

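The genes of the transforming growth factor beta (TGF-β), activin and myostatin family were followed with age in the posterior cricoarytenoid, the laryngeal muscle that opens the vocal folds, of rats aged 6, 18 and 30 months. The family was fixed as 10 genes: the ligands *Tgfb1*, *Tgfb2*, *Tgfb3*, *Inhba* and *Mstn*, the inhibitor *Fst* and the receptors *Tgfbr1*, *Tgfbr2*, *Tgfbr3* and *Acvr1*. All probe sets whose only annotated symbol was one of these were taken, which gave 13 probe sets for 9 genes out of 8740 probe sets, and *Tgfbr2* had none. Of the 13, 10 probe sets of 8 genes passed the filter on low signals, and both *Tgfbr1* probe sets lay under it. Each age was measured on 3 Affymetrix U34 arrays, 9 in all, with the muscles of 4 animals combined in each RNA sample, so the spread between arrays is one between pools. The 6-month rats served as the baseline. No treatment or genotype is named in the labels, and strain and sex are not stated there.

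TGF-β family ligands are made as precursors, cleaved, and released as dimers that bring type I and type II receptor kinases together, which then phosphorylate SMAD proteins that act in the nucleus. In skeletal muscle, myostatin and activin A, the dimer of the *Inhba* product, restrain muscle mass, and follistatin binds and neutralizes both. TGF-β itself is known for driving fibroblasts to make matrix, and the fibrillar collagen genes are among its classical targets, so those genes are given beside the family for each array.

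The median signal of the arrays was 104 to 116 on those of 18 and 30 months, all below the 120.1 to 125 of 6 months, while their trimmed means were scaled alike. All 8 measured skeletal muscle markers passed the filter, and their summed signal was 140907 to 161604 at 6 months, 168958 to 202529 at 18 months and 171583 to 189835 at 30 months. Of the cartilage markers 1 of 5 passed the filter and of the mucosal epithelium markers 1 of 6, and the type II collagen gene *Col2a1* read at most 28.1. The fibroblast list, which holds collagen genes, summed to 13930 to 16528 at 6 months, 10885 to 11284 at 18 months and 11829 to 12448 at 30 months, with 5 of 6 genes past the filter. The thyroid list, with 3 of 3 genes past the filter, summed to 488 to 520 at 6 months, 389 to 1062 at 18 months and 449 to 971 at 30 months. Of that list the hormone precursor gene *Tg* read 628 on replicate 3 of 18 months and 555 on replicate 3 of 30 months, against 30.2 to 109 on the other arrays. Whether these other cells had a part in the values of the family was not tested. A bulk signal cannot tell fewer cells of a type from less RNA per cell.

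None of the 10 tested probe sets of the family passed the threshold between any ages in the model fitted over all probe sets. With 3 arrays an age this does not show that they stayed the same. The signals were compared as log2(signal + 32) with limma, a linear model with moderated errors, and its p-values were adjusted for 5244 tests (Benjamini-Hochberg) and held against a threshold of 0.05. At 18 against 6 months 0 of 10 passed, where 0.0763% of all tested probe sets passed. The 30-month arrays gave 0 calls against 6 months (0.324% of all passed) and 0 against 18 months (0.0191% of all). An unadjusted p under 0.05 was found for 3 of the 10 at 18 against 6 months, all lower, where 8.62% of all tested probe sets reached it, 2.99% as higher and 5.63% as lower. By the brightest probe set of each gene, it was found for 2 of 8 there. It was found for 1 of 10 at 30 against 6 months, on the higher side (12.9% of all, 4.18% higher and 8.73% lower), and for 0 of 10 at 30 against 18 months (3.2% of all, 1.47% higher and 1.74% lower). Over all probe sets, 157 were higher and 295 lower at this level at 18 months, which quantile normalization made 210 and 189. For 30 against 6 months the split was 219 higher and 458 lower, and 297 and 268 after quantile normalization, under which 0 of the 30 changes of the family turned direction.

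The side of the changes can be counted without a threshold. At 18 against 6 months 8 of 10 probe sets of the family lay lower, with a median log2 change of -0.32, where 57.7% of all tested probe sets lay lower and their median was -0.04. For 30 against 6 months 8 of 10 lay lower (median -0.23), where 58.8% of all did (median -0.05). At 30 against 18 months 8 of 10 lay higher (median 0.25), where 54.1% of all tested probe sets lay lower and their median was -0.02. *Tgfb3* and *Fst* each enter these counts with a pair of probe sets from one source sequence. By the brightest probe set of each gene, 6 of 8 lay lower at 18 against 6 months (median -0.28). It was also 6 of 8 at 30 against 6 months (median -0.26), and 6 of 8 lay higher at 30 against 18 months (median 0.25). Every age enters a pair of these comparisons, the 6-month arrays both of the first and the second, so the counts of the 3 comparisons are not independent and their likeness is no result. The compared ages did not overlap in 2 of 10 probe sets at 18 against 6 months, both lower (13.7% of all, 5.32% higher and 8.35% lower). They did not in 3 of 10 at 30 against 6 months, 1 higher and 2 lower (22.2% of all, 7.4% higher and 14.8% lower). They did not in 2 of 10 at 30 against 18 months, 1 in each direction (7.36% of all, 3.18% higher and 4.18% lower).

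The promoters of *Inhba*, *Tgfb1* and *Col1a2* are shown because these genes carry the lowest and the highest changes of the family and the collagen fall beside it. Of the 9 genes, 6 had a promoter in the RefSeq table of the rat build GRCr8, each 250 bases before to 50 after the annotated start. The sequences run 5′ to 3′ on the strand of the gene, and capitals mark matches, on either strand, to the SMAD half-site CAGAC, the TATA box TATAAA, the CCAAT box, the GC box GGGCGG, the AP-1 site TGANTCA or the cAMP response element TGACGTCA. None of these motifs contains another.
*Inhba* (chr17:53804459-53804758, minus strand): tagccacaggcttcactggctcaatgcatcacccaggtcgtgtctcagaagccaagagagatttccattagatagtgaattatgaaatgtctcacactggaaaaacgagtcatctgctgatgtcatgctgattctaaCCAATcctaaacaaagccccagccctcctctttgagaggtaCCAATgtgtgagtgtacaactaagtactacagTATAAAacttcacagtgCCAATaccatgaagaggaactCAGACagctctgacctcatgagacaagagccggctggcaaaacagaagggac
*Tgfb1* (chr1:90324062-90324361, plus strand): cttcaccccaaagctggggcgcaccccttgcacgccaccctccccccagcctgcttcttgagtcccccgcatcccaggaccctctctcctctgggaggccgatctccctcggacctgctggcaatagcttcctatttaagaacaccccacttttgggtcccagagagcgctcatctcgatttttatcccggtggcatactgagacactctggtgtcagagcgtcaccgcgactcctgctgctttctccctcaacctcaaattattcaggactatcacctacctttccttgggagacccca
*Col1a2* (chr4:33518307-33518606, plus strand): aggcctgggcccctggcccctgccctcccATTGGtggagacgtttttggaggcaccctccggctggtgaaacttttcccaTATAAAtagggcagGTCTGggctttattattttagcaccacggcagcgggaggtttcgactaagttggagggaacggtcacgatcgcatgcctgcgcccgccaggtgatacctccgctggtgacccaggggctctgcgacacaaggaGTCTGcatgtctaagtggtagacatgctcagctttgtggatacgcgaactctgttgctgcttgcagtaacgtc
The *Inhba* window held 1 CAGAC, 3 CCAAT and 1 TATAAA, the last starting at -40 from the annotated start. The *Col1a2* window held 2 CAGAC, 1 CCAAT and 1 TATAAA, which starts at -170, and the *Tgfb1* window held 0 matches. Among all 33469 promoters of this length 50.1% held CAGAC, 37.5% CCAAT, 14.2% TATAAA, 33.1% GGGCGG, 7.33% TGANTCA and 1.83% TGACGTCA. A match is a run of letters and not a shown binding site.

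**Figure D1:**
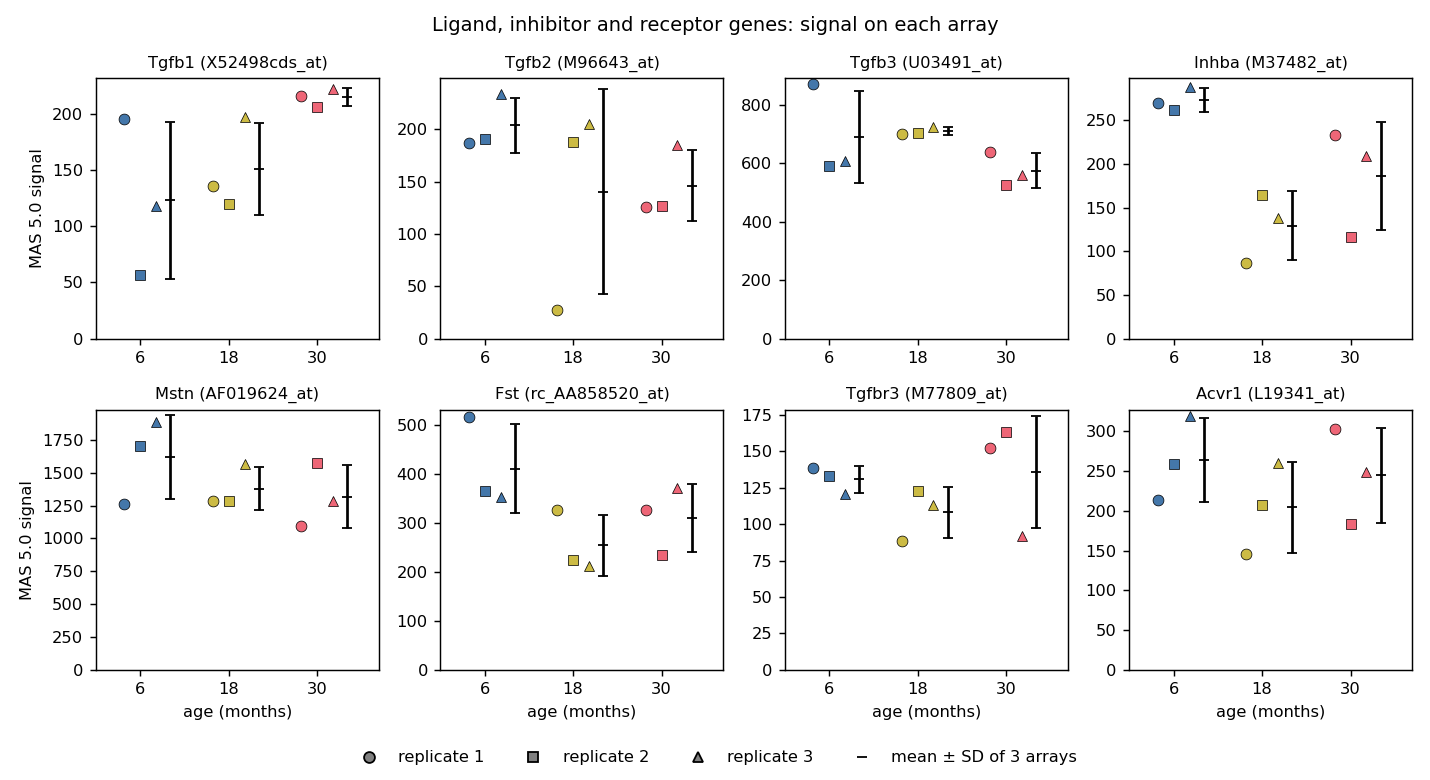
Signal of each array (y axis, MAS 5.0 signal, linear, from 0) by age in months (x axis) for the 8 genes with a probe set past the filter. Points are single arrays, each a pool of 4 animals, marked by replicate number, and bars are the mean and SD of 3 arrays; *Inhba* is lower on every 18-month array than on every 6-month array, and *Tgfb1* is highest on the 30-month arrays.

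The activin subunit gene *Inhba* (probe set M37482_at) read 270, 262 and 288 on the arrays of 6 months, then 86.2, 164 and 138 at 18 months, with 233, 117 and 209 at 30 months. All 18-month and all 30-month arrays lay below the lowest 6-month array, and the 18- and 30-month arrays overlapped. Its mean was 129 ± 39.7 at 18 months and 273 ± 13.3 at 6 months (SD, n = 3 arrays each), a log2 change of -0.95 with a standard error of 0.24 (limma unadjusted p = 0.0027, adjusted p = 0.314). The study asked for an average change over 1.7, and with the added demand that the ages do not overlap, *Inhba* was the one family probe set to meet this at 18 months (2.11-fold lower), where 1.43% of all probe sets did. The 30-month arrays gave a log2 change of -0.53 against 6 months (SE 0.24, limma adjusted p = 0.388), and -0.27 without replicate 2 of 30 months, the lowest array of that age. At 30 against 18 months it was 0.42 (95% interval -0.11 to 0.96).

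Among the tested members *Inhba* had the smallest adjusted p for any difference among ages (limma's F-test, adjusted p = 0.451). Its course over the 9 arrays was most like that of *Anxa5*, which encodes the phosphatidylserine-binding protein annexin A5, among 3162 other genes (Pearson's r = 0.971, a description without a test). *Anxa5* averaged 1643 at 6 months, 1232 at 18 months and 1422 at 30 months. Next came the kinase gene *Tbk1* (0.949), the anaphase-promoting complex gene *Anapc13* (0.922), the transcription factor gene *Irf8* (0.921) and the phosphodiesterase gene *Pde4d* (0.918). These likenesses include the differences between ages, which the genes share with *Inhba*.

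Follistatin, encoded by *Fst*, binds activin and myostatin outside the cell. Its stronger probe set (rc_AA858520_at) read 516, 365 and 353 at 6 months, then 327, 225 and 213 at 18 months, with 327, 235 and 372 at 30 months. The 18-month arrays all lay below the 6-month arrays, while the 30-month arrays overlapped both. The mean was 255 ± 62.5 at 18 months and 411 ± 91.0 at 6 months (SD, n = 3 each), a log2 change of -0.63 (SE 0.21, limma adjusted p = 0.479). The other probe set, from the same source sequence, read 180 to 323 at 18 months and 244 to 426 at 6 months, which overlap (log2 change -0.31, SE 0.25). For 30 against 6 months the probe sets had log2 changes of -0.37 and -0.08 (limma adjusted p = 0.481 and 0.913). In both, replicate 1 was the highest array at 6 months, and without it the second probe set's change at 30 months was 0.15.

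Myostatin, encoded by *Mstn* (AF019624_at) and made by muscle fibres, read 1265, 1706 and 1886 at 6 months, then 1286, 1281 and 1568 at 18 months, with 1098, 1572 and 1287 at 30 months. The ages overlapped in every comparison. Its log2 change was -0.21 at 18 against 6 months (95% interval -0.62 to 0.19) and -0.28 at 30 against 6 months (95% interval -0.69 to 0.12), with limma adjusted p of 0.756 and 0.517. A change of either sign within these intervals cannot be told from none with 3 arrays an age.

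None of the 3 TGF-β ligand genes passed the threshold in any comparison. *Tgfb1*, the main isoform of connective tissue and immune cells (X52498cds_at), read 196, 56.2 and 118 at 6 months, then 136, 120.0 and 197 at 18 months, with 216, 206 and 222 at 30 months. The 30-month arrays lay above all others, of which the highest were 196 at 6 months and 197 at 18 months. The mean was 215 ± 8.24 at 30 months and 123 ± 69.9 at 6 months (SD, n = 3 each), 1.75-fold higher, with a log2 change of 0.77 (SE 0.29, limma unadjusted p = 0.026, adjusted p = 0.334). It was the one family probe set past a ratio of 1.7 without overlap for 30 against 6 months (2.23% of all), and 0 were for 30 against 18 months (0.629% of all). Without replicate 2 of 6 months, which read 56.2, the log2 change was 0.42, and at 18 against 6 months it then turned to -0.03, against 0.32 with that array. At 30 against 18 months the log2 change was 0.45 (SE 0.29, limma adjusted p = 0.999). The leukocyte markers, 3 of 5 past the filter, summed to 943 to 1234 at 30 months and 896 to 1042 at 6 months, and their part in the *Tgfb1* signal was not tested.

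*Tgfb2* (M96643_at), an isoform that needs the co-receptor betaglycan for high-affinity binding, read 187, 191 and 234 at 6 months, then 27.8, 188 and 205 at 18 months, with 126, 127 and 185 at 30 months. The 30-month arrays lay below the 6-month arrays and the 18-month arrays held 1 very low value, replicate 1. The log2 change at 18 against 6 months was -0.69 (SE 0.44) and -0.04 without that array. For 30 against 6 months it was -0.42 (SE 0.44, limma adjusted p = 0.702).

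*Tgfb3*, the third isoform, had a pair of probe sets from one source sequence. The first (U03491_at) read 872, 591 and 608 at 6 months, then 701, 703 and 724 at 18 months, with 639, 524 and 560 at 30 months, so that all 30-month arrays lay below the 18-month arrays (log2 change -0.29, SE 0.15, limma adjusted p = 0.999). The second (U03491_g_at) read 777, 404 and 548 at 6 months, then 319, 495 and 323 at 18 months, with 483, 433 and 513 at 30 months. At 18 against 6 months the log2 change was 0.06 in the first and -0.55 in the second (SE 0.15 and 0.23, limma unadjusted p = 0.712 and 0.0405), and at 30 against 18 months it was 0.33 in the second. The second had -0.32 without replicate 1 of 6 months, and the first turned to -0.04 without replicate 2 and -0.02 without replicate 3 of 6 months, so the first shows no settled direction.

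Among the receptors, betaglycan, encoded by *Tgfbr3* (M77809_at), read 139, 133 and 121 at 6 months, then 88.8, 123 and 113 at 18 months, with 153, 163 and 91.7 at 30 months. *Acvr1*, which encodes a type I receptor for activins and bone morphogenetic proteins (BMPs), read 213, 260 and 319 at 6 months, then 145, 207 and 261 at 18 months, with 303, 183 and 249 at 30 months. In both genes the ages overlapped in every comparison, and the log2 changes at 18 against 6 months were -0.22 (95% interval -0.62 to 0.18) and -0.34 (95% interval -0.84 to 0.16). Replicate 1 was the lowest 18-month array in both, and without it the *Tgfbr3* change was -0.12 (SE 0.19). A further *Tgfbr3* probe set, under the filter, read 23.8 to 87.2 over all arrays. The type I receptor gene *Tgfbr1* read 11.4 to 111 in one probe set and 3.5 to 14.5 in the other, both under the filter. From the fit of all probe sets without a filter, its stronger probe set had log2 changes of -0.01 and -0.07 at 18 and 30 against 6 months (SE 0.43 each).

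**Figure D2:**
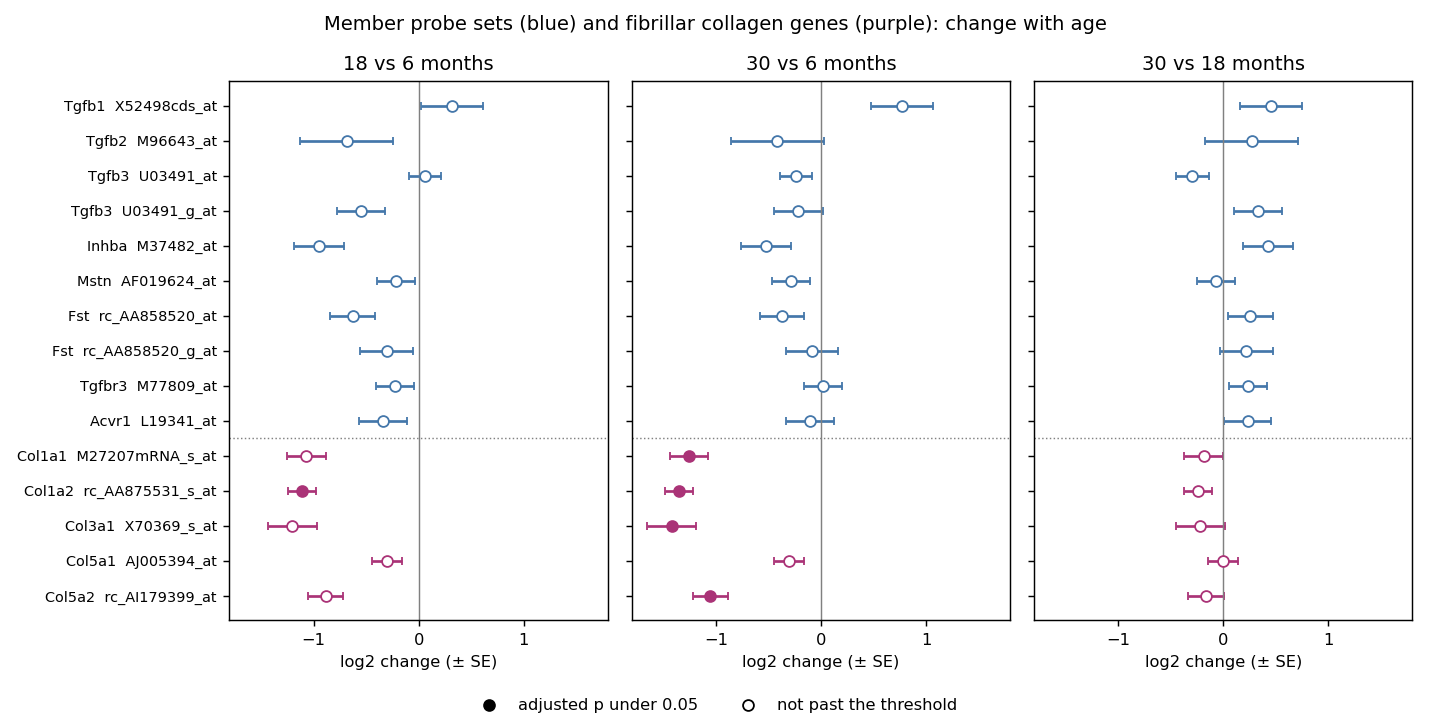
Log2 change with its standard error from limma (x axis) for the 10 tested probe sets of the family in blue and 5 fibrillar collagen genes in purple (y axis), in each of 3 comparisons. Filled points passed an adjusted p of 0.05: 0 of the family, 1 collagen gene at 18 against 6 months and 4 at 30 against 6 months.

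Of 5 fibrillar collagen genes on the same arrays, 1 passed the threshold as lower at 18 months and 4 at 30 months, against 6 months. All 5 lay lower at 18 months than at 6 months without overlap, where 8.35% of all tested probe sets did. Their median log2 change against 6 months was -1.07 at 18 months and -1.25 at 30 months. *Col1a2*, which encodes a chain of type I collagen, fell at 18 months (log2 change -1.11, SE 0.13, limma adjusted p = 0.0168) and at 30 months (-1.35, SE 0.13, limma adjusted p = 0.0092), both against 6 months. *Col1a1* (-1.25), *Col3a1* (-1.42) and *Col5a2* (-1.05) also fell at 30 months, with limma adjusted p of 0.0252, 0.0418 and 0.0389, while *Col5a1* had -0.31. These calls are of the brightest probe set of each gene: the other *Col3a1* probe set had -0.93 (adjusted p = 0.162), and of the 3 other *Col1a1* probe sets 1 passed (-1.40, adjusted p = 0.0252) and 2 had -1.22 and -1.02 (adjusted p = 0.0849 and 0.162). Each of these calls was lost on leaving out certain single arrays. The fall of *Col1a2* at 18 months held in 5 of 9 fits that each left out 1 array, and was lost without replicates 1 or 2 of 6 months or 2 or 3 of 18 months, with limma adjusted p up to 0.12. At 30 months it held in 6 of 9, and was lost without replicate 2 of 6 months or 2 or 3 of 30 months (adjusted p up to 0.0953). That of *Col1a1* held in 4 of 9, and was lost without any array of 6 months or replicates 2 or 3 of 30 months (up to 0.13). Those of *Col3a1* and *Col5a2* held in 1 of 9, without replicate 2 of 18 months, and elsewhere reached adjusted p of 0.177 and 0.176. In these fits the 30-month changes stayed at -1.43 to -1.26 for *Col1a2* and -1.38 to -1.14 for *Col1a1*. At 30 against 18 months the 5 collagen genes had log2 changes of -0.24 to 0.00, where *Inhba* had 0.42 and *Fst* 0.26; a difference between these courses was not tested. Of the other collagens, *Col15a1* and *Col12a1* had log2 changes of -0.43 and -0.39 at 30 against 6 months (SE 0.11 and 0.16, limma adjusted p = 0.234 and 0.364).

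The mean log2 signal of the 5 fibrillar collagen genes was set beside the family array by array. Relative to the 6-month mean it was 0.24, 0.01 and -0.25 on the 6-month arrays, -0.78, -1.16 and -0.80 on those of 18 months, with -0.93, -1.06 and -1.24 on those of 30 months. The 6-month arrays thus lay apart from the others, and no correlation over the 9 arrays is given. Within an age the order of arrays differed between collagen and *Inhba*. At 18 months replicate 1 had the highest collagen mean and the lowest *Inhba* (-1.37 on the same scale) and *Tgfb2* (-1.97). At 30 months replicate 1 had the highest collagen mean and the highest *Inhba* (-0.20), and replicate 2 the lowest *Inhba* (-1.04). At 6 months *Inhba* stayed within -0.05 to 0.07 while collagen spanned -0.25 to 0.24. *Tgfb1* was 0.72 to 0.82 on the 30-month arrays, where collagen was -1.24 to -0.93, and 0.66 on replicate 1 of 6 months, where collagen was highest.

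**Figure D3:**
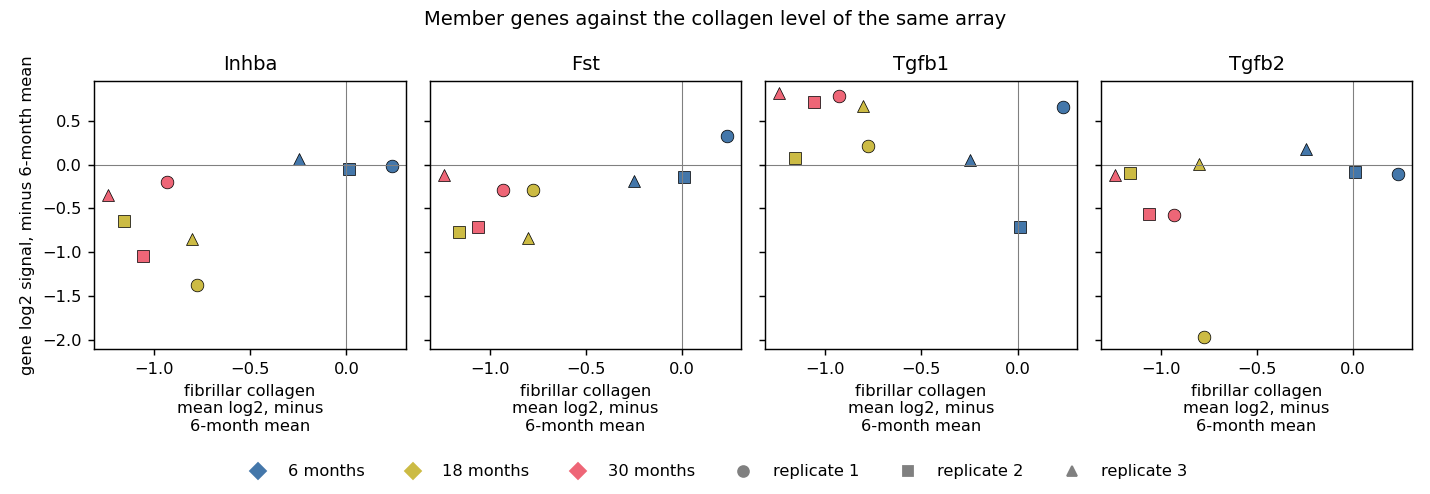
Log2 signal of 4 genes of the family minus its 6-month mean (y axis) against the mean log2 signal of 5 fibrillar collagen genes minus its 6-month mean (x axis), 1 point per array, with age by colour and replicate by shape. Collagen is -1.24 to -0.78 on all 18- and 30-month arrays, whereas *Inhba* spans -1.37 to -0.20 and *Tgfb1* 0.08 to 0.82 there.

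With the collagen mean of each array added to the linear model, *Inhba* had a log2 change of -1.43 at 18 against 6 months (SE 0.58, limma adjusted p = 0.702) and *Fst* one of -0.12 (SE 0.51, limma adjusted p = 0.978). *Tgfb1* then had 1.66 at 30 against 6 months (SE 0.80, limma adjusted p = 0.877). The standard errors without this term were 0.24, 0.21 and 0.29, and with it 0 of 30 changes of the family passed. The collagen mean did not overlap between the 6-month arrays and the later ones, so the model can hardly separate it from age. These values therefore do not show whether a change of the family goes with collagen or not.

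Other genes of the pathway were taken from lists by role, of which 45 genes had a probe set past the filter, out of 104 listed. At 18 against 6 months 0 of 45 passed the limma threshold in either direction and 12 had an unadjusted p under 0.05 (11 lower, 1 higher; 26.7% of the 45, against 8.62% of all tested probe sets). The median log2 change was -0.09. For 30 against 6 months 0 passed, 7 had an unadjusted p under 0.05 (5 lower, 2 higher; 15.6%, against 12.9% of all) and the median was -0.10. At 30 against 18 months 0 passed and 3 had an unadjusted p under 0.05 (6.67%, against 3.2% of all), all higher. These counts use each gene's brightest probe set. The lists were chosen with earlier results of these arrays known.

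Of the other ligands 4 genes were tested. The distant family member *Gdnf*, a neurotrophic factor, read 101, 31.2 and 106 at 6 months, then 69.5, 24.7 and 28.0 at 18 months, with 136, 107 and 112 at 30 months. Its 30-month arrays lay above all others (log2 change 1.10 against 18 months, SE 0.31, limma unadjusted p = 0.00576, adjusted p = 0.999). The anti-Müllerian hormone gene *Amh*, *Bmp6* and the inhibin subunit gene *Inha* had log2 changes of -0.28, 0.17 and -0.25 at 18 against 6 months. Another probe set of *Bmp6* had 0.13 and another of *Inha* -0.43 (SE 0.14 and 0.26, limma adjusted p = 0.811 and 0.651).

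Of the other receptors 6 genes were tested. *Bmpr1a*, a BMP type I receptor gene, had log2 changes of -0.71 at 18 against 6 months and 0.61 at 30 against 18 months (SE 0.23 each, limma adjusted p = 0.466 and 0.999). The activin type I receptor gene *Acvr1b* read 157 to 169 at 30 months and 200 to 289 at 6 months, without overlap (log2 change -0.45, SE 0.15, limma adjusted p = 0.326). The activin type II receptor genes *Acvr2b* and *Acvr2a* had log2 changes of 0.12 and -0.19 at 30 against 6 months.

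Of the genes for latency, activation and inhibition outside the cell 10 were tested. Decorin (*Dcn*), a matrix proteoglycan that binds TGF-β, read 7666, 8207 and 7882 at 18 months, all below 10501, 10414 and 8842 at 6 months (log2 change -0.32, SE 0.11, limma adjusted p = 0.51). Its 3 other probe sets had -0.90, -0.53 and -0.36. *Ltbp1*, which tethers latent TGF-β to matrix, had -0.33, and the follistatin-like gene *Fstl1* had -0.30, both at 18 against 6 months. The BMP antagonist noggin (*Nog*) had 0.28 at 30 against 6 months (SE 0.12, limma adjusted p = 0.366), and 0.47 in its other probe set.

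Inside the cell 5 signalling genes were tested. The signal-transducing SMAD genes *Smad2*, *Smad3* and *Smad1* had log2 changes of 0.17, -0.09 and -0.10 at 30 against 6 months, and *Fkbp1a*, whose product binds type I receptors, had 0.26. None of these brightest probe sets had an unadjusted p under 0.05 in any comparison. Another *Smad1* probe set, under the filter, had 0.36 at 30 against 6 months, without overlap. In the fit without a filter its SE was 0.11 (limma unadjusted p = 0.0118, adjusted p = 0.348). Other *Smad2* probe sets had 0.09 and -0.26, and other *Fkbp1a* probe sets 0.19, 0.00 and -0.24.

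Of the known transcriptional targets 20 genes were tested, and 16 lay lower at 18 against 6 months, with a median of -0.15, where 57.7% of all tested probe sets lay lower and their median was -0.04. For 30 against 6 months 13 of 20 lay lower (median -0.16), where 58.8% of all did. At 30 against 18 months 12 of 20 lay lower (median -0.03), where 54.1% of all did. The list was not split into induced and repressed targets. The matrix protease inhibitor gene *Timp1* read 268 to 330.0 at 30 months and 418 to 461 at 6 months, without overlap (log2 change -0.50, SE 0.12, limma unadjusted p = 0.00173, adjusted p = 0.178). In its other probe set, under the filter, these ages overlapped (log2 change -0.71, SE 0.24, limma adjusted p = 0.36 in the fit without a filter). Fibronectin (*Fn1*), in its strongest probe set, had a log2 change of -0.81 (SE 0.22, limma adjusted p = 0.25), its 4 other probe sets -0.57 to -0.23, and elastin (*Eln*) -0.52 at 30 against 6 months. The helix-loop-helix inhibitor gene *Id2* read 126 to 136 at 18 months and 179 to 194 at 6 months (log2 change -0.41, SE 0.11, limma adjusted p = 0.431).

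Among the weaker probe sets of the listed genes, 1 under the filter passed the threshold in the fit of all 8740 probe sets and was named for that. It belongs to *Igfbp3*, which encodes a binding protein of insulin-like growth factors, and read 64.4, 54 and 60 at 6 months, then 8.8, 12.1 and 16.3 at 18 months, with 14.9, 12.3 and 16.9 at 30 months. All later arrays lay below all 6-month arrays. It fell at 18 months (log2 change -1.04, SE 0.10, limma adjusted p = 0.0186) and at 30 months (-0.97, SE 0.10, limma adjusted p = 0.0176), both against 6 months. With 1 array left out the change stayed at -1.11 to -0.99 at 18 months and -1.01 to -0.93 at 30 months. The call held in 4 of 9 such fits at 18 months, and was lost without replicates 1 or 2 of 6 months, 1 or 2 of 18 months or 1 of 30 months (adjusted p up to 0.0965). It held in 3 of 9 at 30 months, and was lost without any array of 6 or 30 months (up to 0.15). The brighter *Igfbp3* probe set, past the filter, had -0.09 and -0.19 at 18 and 30 against 6 months (SE 0.19 each, limma adjusted p = 0.904 and 0.694), so the fall was seen in 1 of its probe sets.

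**Figure D4:**
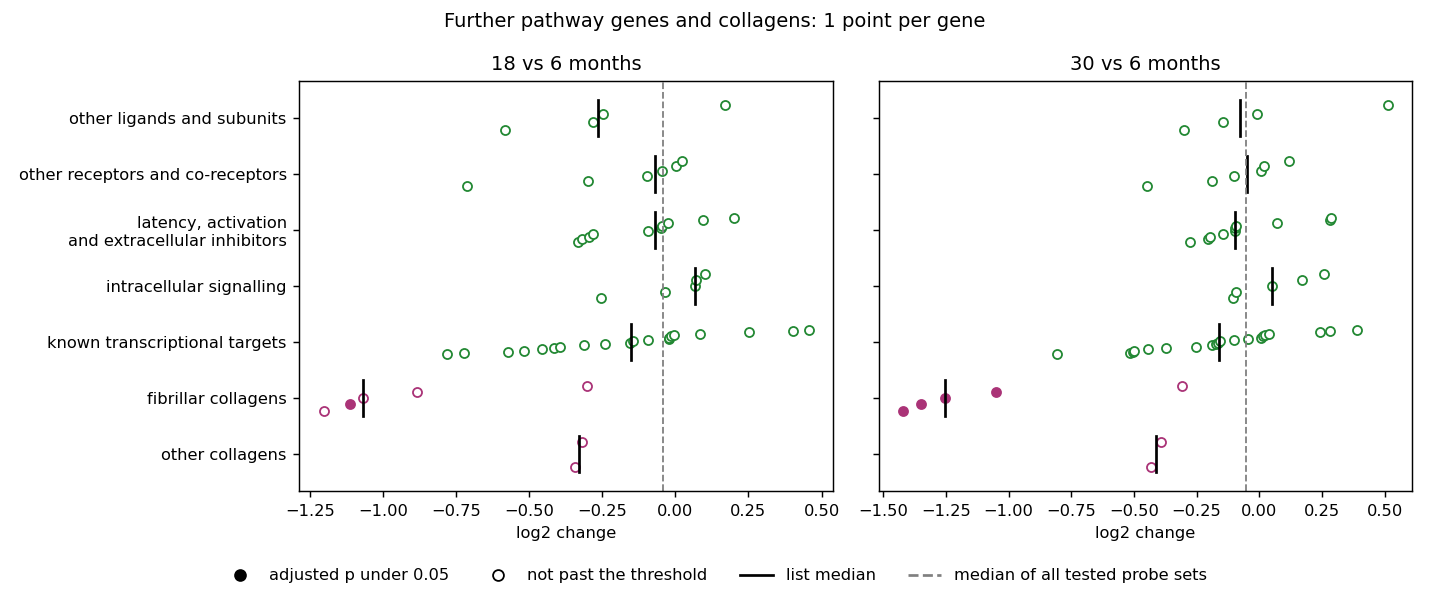
Log2 change (x axis) of each further gene of the pathway and of the collagens, 1 point per gene, by list (y axis), for 18 against 6 months and 30 against 6 months. Black bars are list medians, the dashed line is the median of all tested probe sets (-0.04 and -0.05), and filled points passed an adjusted p of 0.05, which were fibrillar collagens only.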

How the data were processed

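The authors hybridized biotinylated cRNA to Affymetrix Rat Genome U34 arrays and computed signal intensity with Microarray Suite 5.0, per the labels' design text; the deposited intensity values are linear. From 8799 rows, 59 control rows were dropped. The 2% trimmed mean was 500.868 to 500.968 on every array, so the deposited scaling was kept. Detection calls were not used here.

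Signals were taken as log2(signal + 32), and the upper 60% of probe sets by mean log2 (above 6.60) were tested, 5244 of 8740. The linear model gave each age its own mean, used all 9 arrays together and ran in limma 3.58.1 (R 4.3.3). Errors of signals are SD over 3 arrays and those of log2 changes are limma standard errors; the number of arrays limits the precision. P-values are two-sided and set a difference between ages against the moderated spread between arrays. That spread holds differences between pools of animals and array noise together. With 3 arrays on each side, exact permutation reaches p = 0.1 at the least, and it was left out.

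Gene names came from the platform annotation, where 7006 probe sets carry 1 symbol. A gene's brightest probe set stood for it. From each pathway list the genes past the threshold were named, or else up to 4 with the smallest p; other names were picked with their values in view. The members and lists were chosen with earlier results of these data known. The collagen mean used the 5 fibrillar collagen genes past the filter. The fits were tested on simulated data. Alternatives were other pseudocounts, filters, normalization, samples, variance models, a replicate block, a collagen covariate and leaving out each array; leaving out arrays in the fit without a filter was added after seeing the data.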

Additional observations from a re-analysis of the deposited data

How the results depend on the processing

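The count of family probe sets past the limma threshold was 0 in each comparison and stayed 0 under each alternative fit, leave-one-array-out fits included, and no adjusted p was below 0.22; a rule of a ratio over 1.7 without overlap gave 1 at 18 against 6 months (*Inhba*), 1 at 30 against 6 months (*Tgfb1*) and 0 at 30 against 18 months. Of 540 values of family changes under alternatives 21 turned sign, 14 of them on leaving out 1 array 5 with the collagen covariate and 2 with another probe set, and 22 moved by more than the spread between replicates; for *Inhba* at 18 against 6 months the range over single arrays left out was -1.11 to -0.74. The upper 40% of probe sets holds no *Tgfb1*, *Tgfb2* or *Tgfbr3* probe set. With the high-*Tg* array of 18 months (replicate 3) omitted, *Inhba* had -1.004 at 18 against 6 months; with that of 30 months omitted, *Tgfb1* had 0.75 at 30 against 6 months.

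Over all probe sets, the counts past the threshold were 4, 17 and 1 at 18 against 6, 30 against 6 and 30 against 18 months. Leaving out 1 array gave 0 to 5, 0 to 20 and 0 to 1. For 18 against 6 months, omitting replicate 1 of 6 months or replicate 2 of 18 months gave 2, and omitting replicate 2 of 6 months or replicate 3 of 18 months gave 0 (407 and 440 at an unadjusted p under 0.05). For 30 against 6 months, omitting a 6-month array gave 3, 0 or 2 (replicates 1, 2, 3) and omitting a 30-month array gave 10, 0 or 0 (580, 416 and 588 at an unadjusted p under 0.05 where 0). For 30 against 18 months, omitting replicate 1 or 2 of 6 months, 3 of 18 months or 2 of 30 months gave 0 (152 to 189 at an unadjusted p under 0.05). At 18 against 6 months it was 8 with a pseudocount 4 times as large, 8 with a mean-variance trend, and 0 when only the 2 compared ages were fitted (378 at an unadjusted p under 0.05). At 30 against 18 months it was 0 with a pseudocount 4 times as large, the upper 40% of probe sets, a mean-variance trend or only the 2 compared ages (92 to 168 at an unadjusted p under 0.05), and 4 without a filter. The rule of a ratio over 1.7 without overlap gave 75, 117 and 33. The causes were not tested.

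Replicate numbers paired the arrays only in part. Deviations of same-numbered arrays correlated at -0.02 to 0.26 over probe sets, above 0.1 in 4 of 9 pairs. Those of arrays with different numbers correlated at -0.205 to 0.149, above 0.1 in 2 of 18 pairs. What same-numbered arrays share was not tested, and the main model did not use the number. With replicate number as a block the counts were 6, 11 and 0, and 0 family probe sets passed.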

Other observations

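Besides that of *Igfbp3*, the brightest probe sets of 3 pathway genes, under the filter and chosen after their values were seen, had larger log2 changes at 30 against 6 months than the tested genes of their lists, and none passed the threshold. *Smad7*, which encodes an inhibitory SMAD that TGF-β itself induces, read 18.6, 46.2 and 25.7 at 6 months, then 35.5, 31.8 and 59.3 at 18 months, with 89.7, 74.0 and 73.0 at 30 months, and the 30-month arrays lay above all others. In the fit of all probe sets without a filter its log2 change at 30 against 6 months was 0.86 (SE 0.19, limma adjusted p = 0.221). The activin subunit gene *Inhbe* read 130, 108 and 97.3 at 6 months, then 88.5, 36.3 and 55.3 at 18 months, with 24.4, 40.2 and 35.6 at 30 months (log2 change -1.14 at 30 against 6 months, SE 0.21, limma adjusted p = 0.137). *Bmp2* read 6.8, 4.5 and 11.5 at 30 months, below all of 18.7, 44.8 and 24.5 at 6 months (log2 change -0.61, SE 0.20, limma adjusted p = 0.36), while its other probe set had 0.09 (SE 0.21, limma adjusted p = 0.893). These 3 genes read at most 130, where the added 32 makes the log2 change smaller.

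Among the tested targets, *Igfbp5*, which encodes a binding protein of insulin-like growth factors, read 3032, 1693 and 1534 at 6 months, then 1298, 986 and 1177 at 18 months, with 1528, 1470 and 3540 at 30 months, and all 18-month arrays lay below the others. Its log2 changes were -0.78 at 18 against 6 months and 0.78 at 30 against 18 months (SE 0.35 each, limma adjusted p = 0.576 and 0.999). The 6- and 30-month groups each hold 1 array well above their others. In another *Igfbp5* probe set past the filter the ages overlapped, with log2 changes of -0.75 and 0.69 in these comparisons (SE 0.66 each).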
